A study of Mus musculus with 36 samples.

Results

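The HoxB genes described here are Hoxb2, Hoxb3, Hoxb4, Hoxb5, Hoxb6, Hoxb7, Hoxb8 and Hoxb9, 8 of the 50833 genes in the deposited count table. They were chosen by name, and all 8 were found in both the count table and the table of FPKM, a level per kilobase of transcript and library size. Poly(A) RNA was sequenced from the distal and the proximal forelimb of mouse embryos at stage E12.5, in 36 libraries that form 12 groups of 3. Each tissue was sampled in wild type (WT) and in 5 mutant alleles made with CRISPR/Cas9, which lack sites bound by the architectural protein CTCF (CBS) in the region of Hoxd. They are the allele Del(CBS1), the allele Del(CBS1-2), the allele Del(CBS1-3), the allele Del(CBS1-4) and the allele Del(CBS1-5). The labels give the strain B6CBAF1 for all groups, and 1 library holds the limbs of an individual embryo. Whether the mutant embryos carried the deletion on both chromosomes, and how many founders each allele had, is not given in the labels.

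Hox genes encode homeodomain transcription factors that give cells their position along the body axis, and mammals carry them in the clusters HoxA, HoxB, HoxC and HoxD. Genes with the same number in different clusters are paralogues, and neighbours within a cluster are switched on in their chromosomal order in the trunk. In the limb, HoxA and HoxD genes are the main patterning genes of the skeleton, while HoxB genes are best known from hindbrain, spinal cord, trunk mesoderm and blood. MEIS and PBX proteins bind DNA together with Hox proteins, and retinoic acid is a known inducer of anterior HoxB genes.

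The 8 genes lie on chromosome 11 of mm10, within 82556 bp from position 96271457, where Hoxb9 starts, to 96354012, where Hoxb2 ends. Hoxb9 spans chr11:96271457-96276595 and Hoxb8 chr11:96281905-96285315. Hoxb7 spans chr11:96286623-96290162 and Hoxb6 chr11:96292476-96301569. Hoxb5 spans chr11:96303512-96306120 and Hoxb4 chr11:96318267-96321638. Hoxb3 spans chr11:96323326-96347930 and Hoxb2 chr11:96351631-96354012. The gene models of Hoxb6 and Hoxb5 overlap Hoxb5os, those of Hoxb3 and Hoxb2 overlap Hoxb3os, and Gm11536 also lies within Hoxb3. The strand setting of the counting is not known here, and reads of Hoxb3 and Hoxb2 may be shared with Hoxb3os, while Hoxb5os had between 0 and 6 counts in every library.

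RefSeq promoter sequences (GRCm38.p6) were matched for 2 of the 8 genes, Hoxb8 and Hoxb4, and the 250 bases upstream of each start are shown because both genes were lower in the distal forelimb in the averaged comparison given further on. Capitals mark matches, on either strand, to TGATNNAT, a joint PBX-HOX motif, and TTTATNG, a motif of CDX and posterior Hox proteins. The motifs, which include TGACAG for MEIS, were chosen after the results were seen.
Hoxb8: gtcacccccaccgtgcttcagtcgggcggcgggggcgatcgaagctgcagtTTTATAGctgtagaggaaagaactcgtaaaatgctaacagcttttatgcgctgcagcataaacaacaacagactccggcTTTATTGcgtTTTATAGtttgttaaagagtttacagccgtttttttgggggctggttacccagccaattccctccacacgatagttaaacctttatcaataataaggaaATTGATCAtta
Hoxb4: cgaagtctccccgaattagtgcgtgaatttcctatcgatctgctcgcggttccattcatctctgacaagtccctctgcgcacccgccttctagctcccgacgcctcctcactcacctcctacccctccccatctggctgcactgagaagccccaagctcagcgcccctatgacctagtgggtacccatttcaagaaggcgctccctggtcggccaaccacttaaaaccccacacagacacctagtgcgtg
The Hoxb8 sequence is chr11:96281655-96281904 on the plus strand, with 44.4% G or C. The Hoxb4 sequence is chr11:96318017-96318266 on the plus strand, with 58% G or C. The Hoxb8 window held 3 matches to TTTATNG and 1 to TGATNNAT, which share no base, and 0 to TGACAG. The Hoxb4 window held 0 matches to each of the 3 motifs. Over 32851 promoter windows of the same length, TTTATNG was present in 9.81%, TGATNNAT in 7.68% and TGACAG in 15.9%.

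HoxB transcripts were scarce in both tissues. Hoxb9, a posterior member of the cluster, had 9, 20 and 39 counts (lowest, median and highest) over the 18 distal libraries, and 40, 72.5 and 101 over the 18 proximal libraries. Hoxb2, the most anterior member measured here, had 8, 18 and 31 counts in distal and 27, 52 and 84 in proximal libraries. Hoxb3 had 3, 9.5 and 16 counts in distal and 24, 39.5 and 115 in proximal libraries. These were the members with the most counts. Hoxb4 had 3, 8.5 and 19 distal counts and 13, 24 and 40 proximal counts. Hoxb8 had 3, 7.5 and 12 distal counts and 6, 19 and 39 proximal counts. Hoxb7 had 4, 8.5 and 14 distal counts and 8, 12 and 26 proximal counts. The lowest members were Hoxb6 and Hoxb5, whose counts stayed at 15 or below in all 36 libraries. Hoxb6 had 1, 3 and 8 distal counts and 1, 6.5 and 15 proximal counts. Hoxb5 had 0, 3.5 and 11 distal counts and 1, 8 and 13 proximal counts, and its 2 distal libraries at 0 allow up to 3 counts each. The totals behind these values ran from 11062069 to 17727891 counts per library.

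Compared per length, the order of levels was similar but not the same in the tissues. In the proximal forelimb mean FPKM was 1.56 ± 0.432 (SD, n = 18) for Hoxb2 and 1.52 ± 0.292 for Hoxb9. It was 0.733 ± 0.315 for Hoxb3, 0.543 ± 0.191 for Hoxb7, 0.455 ± 0.130 for Hoxb4 and 0.429 ± 0.151 for Hoxb8. Hoxb6 and Hoxb5 came last, with 0.226 ± 0.0991 and 0.214 ± 0.0766. Between neighbours, the steps from Hoxb9 to Hoxb3 and from Hoxb8 to Hoxb6 were larger than the SD of both genes. In the distal forelimb the FPKM order was Hoxb2 (0.532 ± 0.209), Hoxb9 (0.426 ± 0.151), Hoxb7 (0.297 ± 0.111), Hoxb8 (0.176 ± 0.0936), Hoxb4 (0.167 ± 0.0826), Hoxb3 (0.158 ± 0.0570), Hoxb5 (0.104 ± 0.0798) and Hoxb6 (0.104 ± 0.0678). There, the step from Hoxb7 to Hoxb8 was the one that exceeded both SDs. The outer members of the cluster, Hoxb1 and Hoxb13, had at most 3 and 1 counts in any library.

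The 16 paralogues of groups 2 to 9 in the other clusters give the scale of these levels. Summed FPKM of the 8 HoxB genes was 1.96 in the distal and 5.68 in the proximal forelimb, beside 55.8 and 91.1 for the 16 paralogues. Within each paralogue group from 2 to 8, the HoxB gene had the lowest mean FPKM in both tissues. Library by library, Hoxb6 and Hoxb7 were the lowest of their groups in all 18 libraries of each tissue, and Hoxb4 and Hoxb5 in all 18 distal and 17 proximal libraries. Hoxb8 was the lowest in 18 distal and 14 proximal libraries, and Hoxb2 in 16 and 12. Hoxb3 was the lowest in 9 distal and 14 proximal libraries, and distal Hoxb3 (0.158 ± 0.0570 FPKM) and Hoxd3 (0.179 ± 0.174) differed by less than their SDs. Hoxb9 had the lowest mean of 4 genes in the distal forelimb, where it was the lowest in 10 of 18 libraries, and ranked 2 from the lowest in the proximal forelimb, above Hoxc9 (0.155 ± 0.0605 FPKM). Hoxb2 held the largest share of its group, 45.9% of the summed FPKM of Hoxa2 and Hoxb2 in the proximal and 29.0% in the distal forelimb. Hoxb9 held 3.13% and 1.25% of group 9, in which Hoxa9 stood at 30.2 ± 3.60 and 28.7 ± 3.18 FPKM. The SDs pool the 6 genotypes, HoxD genes included, which sit in the mutated cluster.

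**Figure D1:**
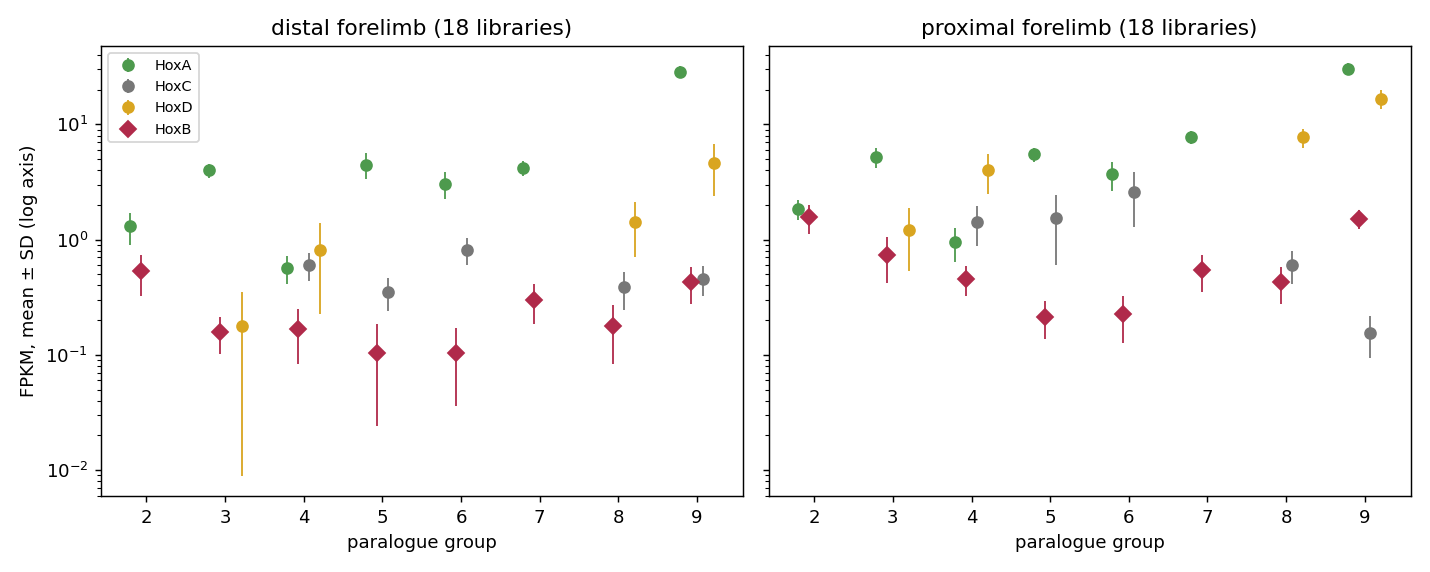
Mean FPKM ± SD (log axis) over the 18 libraries of each tissue for the Hox genes of paralogue groups 2 to 9, with HoxB genes as diamonds and the other clusters as circles. The diamonds are the lowest means of each group, except for Hoxb9 in the proximal forelimb, which lies above Hoxc9.

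HoxB genes were lower in the distal than in the proximal forelimb. Levels are given from here on as CPM (counts scaled to library size, with TMM normalization of the 36 libraries together), which compares libraries and not genes. In WT, Hoxb9 stood at 1.23, 1.53 and 1.25 CPM in the distal and 4.68, 4.05 and 6.46 in the proximal libraries. Hoxb3 stood at 0.546, 0.763 and 0.996 distal and 2.42, 2.43 and 3.54 proximal CPM. Neither gene overlapped between the WT tissues. Hoxb8 had 0.614, 0.486 and 0.436 distal and 1.48, 1.12 and 2.65 proximal CPM. Hoxb2 had 1.57, 1.11 and 1.25 distal and 2.34, 3.18 and 2.45 proximal CPM. Both were again separated, while Hoxb4 met at the edge. Hoxb4 had 1.09, 0.624 and 0.560 distal and 1.09, 1.56 and 1.43 proximal CPM. Hoxb7 had 0.614, 0.347 and 0.498 distal and 1.56, 0.748 and 0.680 proximal CPM, without overlap. For Hoxb6, distal CPM was 0.341, 0.208 and 0.187 and proximal CPM 0.468, 0.686 and 0.408, also without overlap. Hoxb5 overlapped broadly, with 0.137, 0.763 and 0.311 distal and 0.0780, 0.810 and 0.544 proximal CPM. The share of all genes that separated between the WT tissues is not given here, so the separations are descriptions.

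Of the 5 members that passed the count filter in WT, 4 were called lower in the distal forelimb by edgeR's quasi-likelihood test at a Benjamini-Hochberg adjusted p under 0.05, beside 17.1% of all genes tested. The log2 fold change was -1.92 ± 0.28 (SE) for Hoxb9 (adjusted p 9.94e-04), -1.85 ± 0.33 for Hoxb3 (0.0034), -1.76 ± 0.43 for Hoxb8 (0.0141) and -1.02 ± 0.28 for Hoxb2 (0.0233). Hoxb4 was not called, at -0.85 ± 0.37 (0.122). The filter asks for enough counts in 3 libraries, which can all be of the same tissue. A gene low in distal libraries could thus be tested through its proximal counts alone, in each comparison of the tissues. Hoxb8 in WT, with 9, 7 and 7 distal counts, was such a case. Shares of tested members called lower are therefore descriptions. Hoxb7, Hoxb6 and Hoxb5 lay under the filter. In the fit without a filter they were at -1.001, -1.07 and -0.29 and were not called. The call of Hoxb8 was lost without distal replicate 3 (-1.65) and without proximal replicate 3 (-1.33). That of Hoxb2 was lost without distal replicate 2 (-0.92) or 3 (-0.99), and without proximal replicate 2 (-0.87) or 3 (-1.08). It was also lost by DESeq2 (-1.03).

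The same direction was seen in the mutant embryos, whose tissues were compared within each genotype. In Del(CBS1), Hoxb9 (-1.91 ± 0.28), Hoxb3 (-2.50 ± 0.36) and Hoxb2 (-1.73 ± 0.26) were called lower on the log2 scale among 7 members tested, beside 19.7% of all genes. In Del(CBS1-2), 5 of 6 were called, beside 25.9%, and Hoxb2 had its lowest distal value relative to proximal there, -2.38 ± 0.27. Del(CBS1-3) had 5 of 6 called, beside 18.3%, with Hoxb9 at -2.32 ± 0.31 and Hoxb3 at -2.51 ± 0.35. Del(CBS1-4) had 3 of 4 called, beside 20.8%: Hoxb9 (-1.51 ± 0.32), Hoxb3 (-2.20 ± 0.43) and Hoxb2 (-1.36 ± 0.35). Del(CBS1-5) had 5 of 6 called, beside 21%, with Hoxb3 at -2.53 ± 0.41 and Hoxb4 at -1.90 ± 0.39. Hoxb9, Hoxb3 and Hoxb2 were thus called by edgeR in each of the 6 genotypes. Hoxb4 was called in Del(CBS1-2) (-1.98 ± 0.34), Del(CBS1-3) (-1.96 ± 0.43) and Del(CBS1-5), and Hoxb8 in WT, Del(CBS1-2) (-1.53 ± 0.37), Del(CBS1-3) and Del(CBS1-5). The Hoxb8 call in Del(CBS1-3), at -1.50, was lost without distal replicate 2 (-1.33) or 3 (-1.26) and without proximal replicate 1 (-1.59) or 2 (-1.23). It was also lost by DESeq2 (-1.52) and by limma on log2(FPKM + 0.1) (-0.88) and log2(FPKM + 1) (-0.29), scales that understate the change of low genes. The Hoxb8 call in Del(CBS1-5), at -0.85, was lost without any of its 6 libraries, with values between -0.91 and -0.78. It was lost as well by DESeq2 (-0.85), without a filter (-0.83) and on both FPKM scales (-0.39 and -0.12). With the embryo as a block, Hoxb4 was also called in Del(CBS1-4) (adjusted p 0.016), while in Del(CBS1-5) Hoxb8 was lost (0.0694) and Hoxb7 gained (0.0244).

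Averaged over the 6 genotypes, a comparison of all 36 libraries added after the values were seen, all 8 HoxB genes passed the filter and all 8 were called lower in the distal forelimb, beside 34.2% of the genes tested. Their median log2 fold change was -1.47, and that of all genes was -5.22e-04. Hoxb3 had the largest difference, -2.31 ± 0.16 on the log2 scale, followed by Hoxb9 at -1.89 ± 0.13 and Hoxb2 at -1.57 ± 0.11. Hoxb4 was at -1.48 ± 0.18 and Hoxb8 at -1.46 ± 0.17. The low-count members had smaller values, with Hoxb5 at -1.22 ± 0.28, Hoxb6 at -1.09 ± 0.26 and Hoxb7 at -0.85 ± 0.19. As ratios of mean CPM, the proximal forelimb held 5.05 times as much Hoxb3, 3.65 times as much Hoxb9 and 2.95 times as much Hoxb2 as the distal forelimb, and the ratio was 1.83 for Hoxb7. Adjusted p ran from 2.24e-14 for Hoxb9 to 3.76e-04 for Hoxb6. For Hoxb9 and Hoxb3, all 18 distal libraries lay below all 18 proximal libraries. For the other members the ranges over all libraries overlapped, with 17 distal libraries of Hoxb2 and 3 of Hoxb6 below the whole proximal range. Distal and proximal samples with the same number deviated together from their group means, and within these 18 pairs the proximal value was higher in 18 for Hoxb9, Hoxb8, Hoxb3 and Hoxb2. It was higher in 17 for Hoxb7, Hoxb5 and Hoxb4, and in 16 for Hoxb6. Such separations and pair counts are not given here for all genes.

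**Figure D2:**
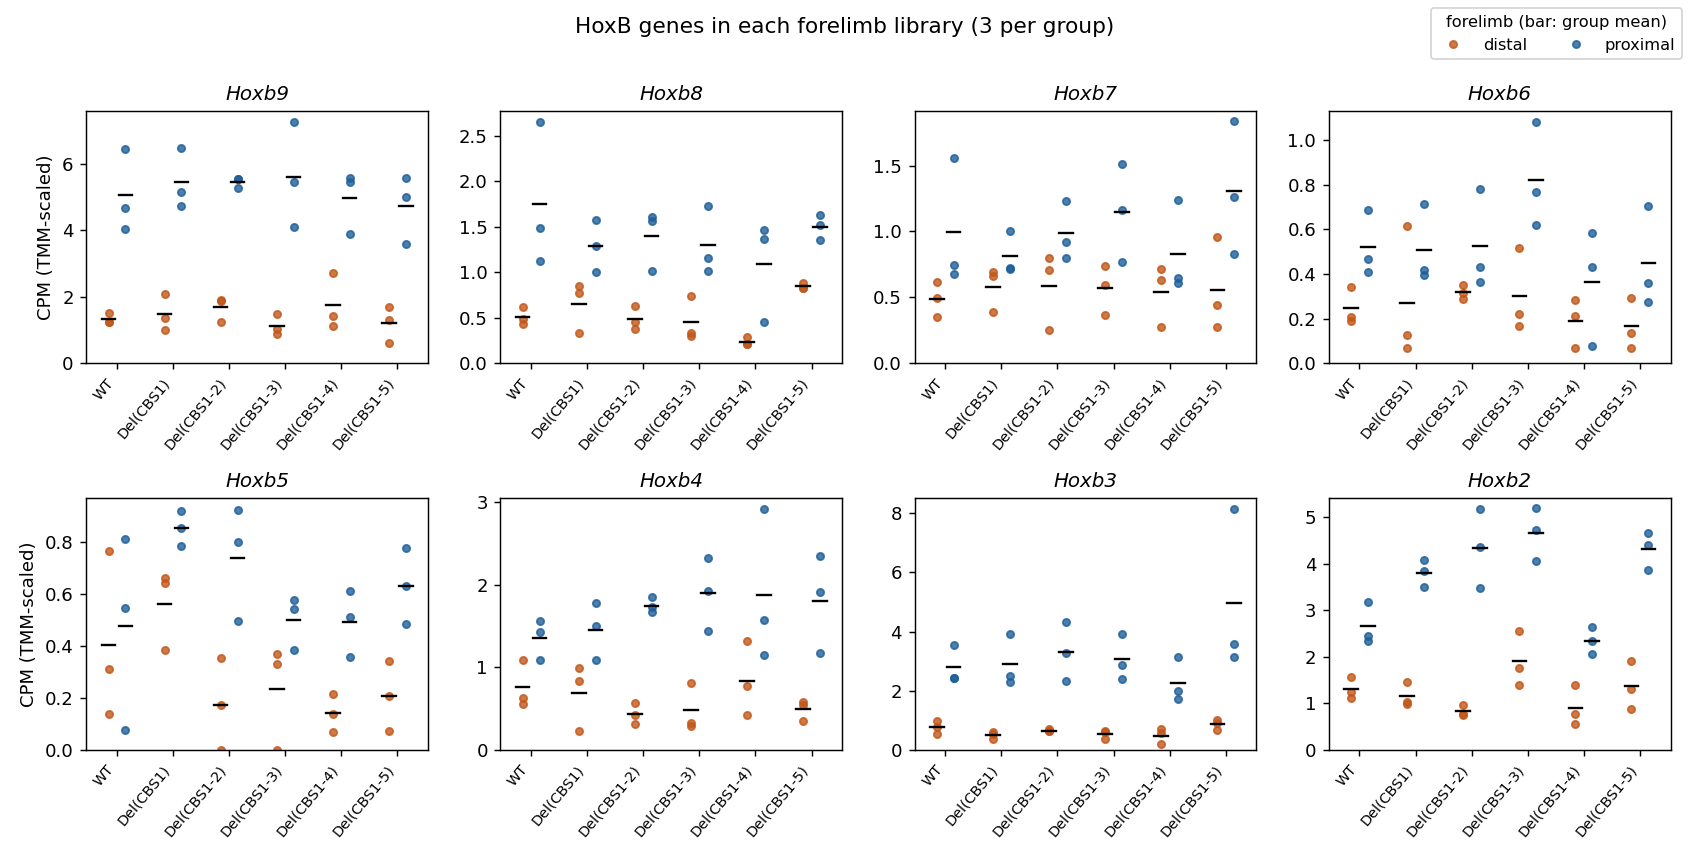
CPM of each HoxB gene in every library, by genotype, with distal libraries in orange, proximal libraries in blue and a bar at each group mean (3 libraries per group). Distal and proximal points are fully separated for Hoxb9 and Hoxb3, and proximal Hoxb3 in Del(CBS1-5) has a lone point at 8.12 CPM.

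**Figure D3:**
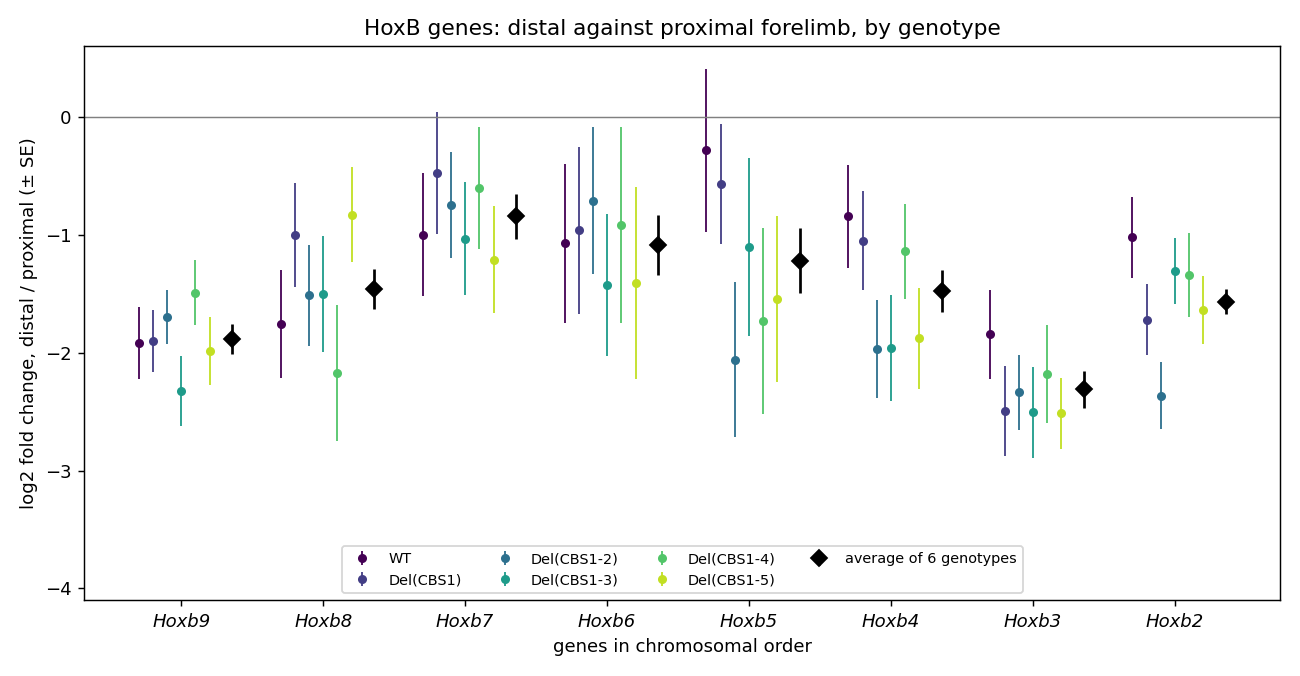
Log2 fold change (± SE) of distal against proximal forelimb for each HoxB gene, in chromosomal order, for the 6 genotypes (circles, fit without a count filter) and averaged over them (black diamonds). All circles lie below 0, and the diamonds run from -2.31 for Hoxb3 to -0.85 for Hoxb7.

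These libraries are bulk tissue, in which fewer cells of a type and less RNA per cell cannot be told apart, and the makeup of the tissues differed. The forelimb gene Tbx5 was at 38.9 to 57.6 FPKM in distal and 67.4 to 89.3 in proximal libraries, while the hindlimb genes Tbx4 and Pitx1 summed to at most 8.92. The 4 distal limb markers (Hoxa13, Msx1, Msx2, Lhx2) summed to 236 to 346 FPKM in distal and 11.97 to 59.8 in proximal libraries, the order the tissue labels give. Skeletal muscle markers (10 genes) summed to 4.80 to 41.0 FPKM in distal and 424 to 892 in proximal libraries. Tendon and connective tissue markers (7 genes) summed to 116 to 217 and 506 to 872, cartilage markers (5 genes) to 251 to 379 and 393 to 696, and nerve and Schwann cell markers (6 genes) to 8.999 to 13.8 and 29.0 to 34.4. Erythroid and epidermis markers (6 genes each) had higher medians in distal libraries, 2431 beside 2038 and 161 beside 150 FPKM, with overlap. Macrophage, endothelium and neuron markers had higher medians in proximal libraries. Members of a list could differ: Sox9 (cartilage) had a median of 63.4 FPKM in distal and 43.3 in proximal libraries, and Krt15 (epidermis) 4.92 and 33.4. No marker of these lists was at 0 in all libraries of a tissue. Their part in the HoxB difference was not tested.

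Other Hox genes and their partners were measured in the same averaged comparison. Of the 16 paralogues in the other clusters, 15 were called lower in the distal forelimb and 1 higher, beside 34.2% and 34.4% of all genes tested, with a median log2 fold change of -0.84. Those with the smallest p were Hoxd9 (-1.97 ± 0.07), Hoxd8 (-2.51 ± 0.12), Hoxd4 (-2.51 ± 0.14) and Hoxd3 (-3.39 ± 0.21), all of the mutated cluster. The exception, named after its value was seen, was Hoxc9 at 1.56 ± 0.17. In WT alone, 8 of the 16 were called lower and 1 higher, beside 17.1% and 13.6% of all genes. Of 9 genes for MEIS, PBX and PKNOX cofactors, 8 were called lower in the averaged comparison and 5 in WT, beside the same 34.2% and 17.1%. They included Pbx3 (-0.73 ± 0.04), Meis1 (-1.39 ± 0.08) and Meis2 (-0.86 ± 0.06). Of 12 genes known as upstream regulators of Hox clusters, 9 were tested, 8 were called higher in the distal forelimb and 1 lower, beside 34.4% and 34.2% of all genes. The higher ones included Aldh1a2 (2.90 ± 0.09), which makes retinoic acid, Cyp26b1 (1.55 ± 0.07), which degrades it, the ligand Gdf11 (0.70 ± 0.03) and the receptor Rarg (0.29 ± 0.02). The receptor Rara, the lower one, was at -0.15 ± 0.03 and was named after its value was seen. The genes of this list that were not tested were Cdx1, Cdx2 and Cdx4, of the family whose motif is marked upstream of Hoxb8.

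Neighbours of the HoxB genes on chromosome 11 did not share their direction as a group. Of 24 further gene models in the interval or within 300 kb of it, 6 were tested in the averaged comparison. Hoxb3os, the antisense gene that overlaps Hoxb3 and Hoxb2, was called lower in the distal forelimb (-1.27 ± 0.09 on the log2 scale), with 1.46 to 2.83 CPM in distal and 3.61 to 9.26 in proximal libraries, without overlap. Gm53 was called higher, at 0.78 ± 0.16. Snf8, a subunit of the ESCRT-II complex, was at 0.05 ± 0.03, and Ube2z, a ubiquitin-conjugating enzyme, at -0.02 ± 0.02, and neither was called.

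The deletions at Hoxd gave no called change of a HoxB gene against WT. This comparison asks whether genes of another chromosome respond to the loss of CTCF sites at Hoxd. Over the 5 alleles and both tissues, 70 values were tested and edgeR called 0 of them, as did DESeq2 and limma, while 6 had an unadjusted p under 0.05. Per allele, 1488 to 4085 of 15361 genes tested had such a p in the distal forelimb, and 1025 to 3084 of 15813 in the proximal forelimb. Of the 70 values, 8 had no overlap with WT, 6 of them higher. The share of all genes without overlap is not given here. In the distal forelimb all genes were called at 0.0325% in Del(CBS1), 10.5% in Del(CBS1-2), 0.00651% in Del(CBS1-3), 0.0846% in Del(CBS1-4) and 0.0651% in Del(CBS1-5). In the proximal forelimb the shares were 0.0443%, 0.721%, 0.0696%, 0% and 0.0696% in the same order. The SE of the log2 fold changes of HoxB genes was 0.34 to 0.55 in the distal and 0.19 to 0.55 in the proximal forelimb. At these counts small changes were not detectable, and larger ones could go uncalled. Distal Hoxb8 in Del(CBS1-4), at -1.10 ± 0.49, had an edgeR adjusted p of 0.294. Log2 fold changes ran from -1.10 to 0.84.

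In the proximal forelimb Hoxb9 had the narrowest range of log2 fold changes against WT among the 8 members. They lay between -0.08 and 0.15 with SEs of 0.23. Its group means there ran from 4.73 ± 1.02 CPM (SD, n = 3) in Del(CBS1-5) to 5.61 ± 1.59 in Del(CBS1-3). In the distal forelimb they ran from 1.13 ± 0.31 CPM in Del(CBS1-3) to 1.75 ± 0.841 in Del(CBS1-4). Hoxb4 ran from 1.36 ± 0.241 in WT to 1.90 ± 0.442 CPM in Del(CBS1-3) in the proximal forelimb and from 0.436 ± 0.129 in Del(CBS1-2) to 0.840 ± 0.449 in Del(CBS1-4) in the distal forelimb. Hoxb7 had a proximal range of 0.812 ± 0.164 in Del(CBS1) to 1.31 ± 0.507 CPM in Del(CBS1-5), and a distal range of 0.486 ± 0.134 in WT to 0.585 ± 0.293 in Del(CBS1-2). None of these was called against WT. The 3 proximal Hoxb4 libraries of Del(CBS1-2), at 1.67, 1.85 and 1.73 CPM, lay above those of WT, while in the other 4 alleles proximal Hoxb4 overlapped WT. Hoxb6 had proximal means of 0.363 ± 0.260 CPM in Del(CBS1-4) to 0.823 ± 0.235 in Del(CBS1-3) and distal means of 0.166 ± 0.115 in Del(CBS1-5) to 0.317 ± 0.0332 in Del(CBS1-2). Hoxb5 had proximal means of 0.477 ± 0.371 in WT to 0.852 ± 0.0668 CPM in Del(CBS1) and distal means of 0.141 ± 0.0717 in Del(CBS1-4) to 0.561 ± 0.154 in Del(CBS1). In the distal forelimb both Hoxb6 and Hoxb5 lay under the count filter and were not tested against WT.

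Hoxb2 in the proximal forelimb came nearest to a call against WT. WT libraries stood at 2.34, 3.18 and 2.45 CPM. Del(CBS1) libraries stood at 4.07, 3.85 and 3.51 CPM, Del(CBS1-2) at 4.35, 3.48 and 5.18, Del(CBS1-3) at 4.07, 5.19 and 4.73, and Del(CBS1-5) at 4.66, 3.86 and 4.41. All 12 of these lay above the 3 WT libraries, without a share of all genes that did so to set beside them. Del(CBS1-4), at 2.06, 2.65 and 2.33 CPM, overlapped WT. The log2 fold changes were 0.51 ± 0.20 (adjusted p 0.57 in edgeR) in Del(CBS1), 0.70 ± 0.19 (0.0807) in Del(CBS1-2), 0.80 ± 0.19 (0.111) in Del(CBS1-3), -0.18 ± 0.21 (0.723) in Del(CBS1-4) and 0.69 ± 0.20 (0.413) in Del(CBS1-5). None was called, and the 5 comparisons share the same WT libraries. In the distal forelimb Hoxb2 group means ran from 0.833 ± 0.121 CPM in Del(CBS1-2) to 1.91 ± 0.584 in Del(CBS1-3), beside 1.31 ± 0.237 in WT. There, the Del(CBS1-2) libraries (0.774, 0.972 and 0.753 CPM) all lay below WT, and the other alleles overlapped WT. Distal Hoxb8 also separated from WT, lower in Del(CBS1-4) (-1.10 ± 0.49, edgeR adjusted p 0.294) and higher in Del(CBS1-5) (0.70 ± 0.40, 0.473). None of these distal differences was called.

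**Figure D4:**
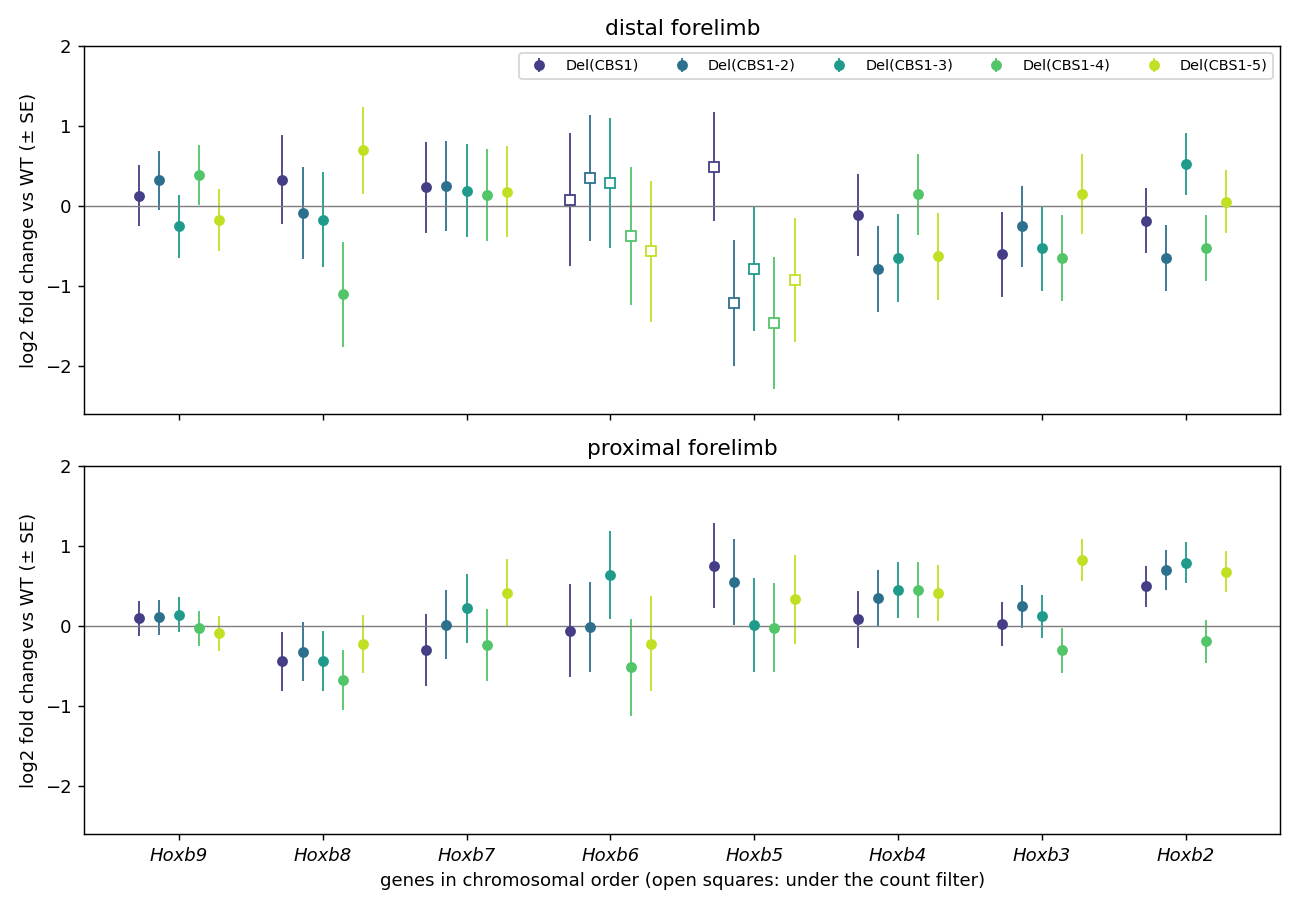
Log2 fold change (± SE, fit without a count filter) of each HoxB gene in the 5 alleles against WT, in the distal (top) and proximal (bottom) forelimb, with open squares for values under the count filter of the main test. None of the values was called, and proximal Hoxb2 lies above 0 in 4 of the 5 alleles.

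Each allele was also compared with the preceding one of the series. Among 56 HoxB values, 3 were called. In the distal forelimb all genes were called at 2.47% for Del(CBS1-2) against Del(CBS1), 6.53% for Del(CBS1-3) against Del(CBS1-2), 10.7% for Del(CBS1-4) against Del(CBS1-3) and 16.7% for Del(CBS1-5) against Del(CBS1-4). In the proximal forelimb the shares were 1.49%, 7.27%, 13.8% and 10.3%. The 3 calls all involved Del(CBS1-4). They were 1 of 6 members tested beside 16.7%, 1 of 8 beside 13.8% and 1 of 8 beside 10.3%, shares near the background.

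Hoxb2 was lower in proximal Del(CBS1-4), at 2.06 to 2.65 CPM, than in Del(CBS1-3), at 4.07 to 5.19, a log2 fold change of -0.99 ± 0.20 (edgeR adjusted p 0.00559) that was also called without each of the 6 libraries in turn. It was higher again in Del(CBS1-5), at 0.88 ± 0.20 (0.0141), a call lost without Del(CBS1-4) proximal replicate 1 (0.79) or 3 (0.87) and without Del(CBS1-5) proximal replicate 1 (0.81). Proximal limb markers (Meis1, Meis2, Shox2, Emx2) moved in the same direction over these 3 alleles. Their summed FPKM was 147 to 157 in Del(CBS1-3), 95.3 to 106 in Del(CBS1-4) and 136 to 162 in Del(CBS1-5). In WT it was 105 to 141. In Del(CBS1) and Del(CBS1-2), whose proximal Hoxb2 lay above WT, the sums were 118 to 131 and 118 to 130, within the WT range. Shox2 was the largest part, with a median of 100.7 FPKM over all proximal libraries beside 130 for the sum. Distal limb markers summed to 11.97 to 28.4, 17.1 to 56.6 and 19.8 to 38.6 FPKM in proximal Del(CBS1-3), Del(CBS1-4) and Del(CBS1-5). The part of these markers in the Hoxb2 values was not tested. Hoxb8 in the distal forelimb stood at 0.285, 0.211 and 0.208 CPM in Del(CBS1-4), from 3 or 4 counts each, and at 0.821, 0.828 and 0.879 CPM in Del(CBS1-5), from 12 counts each. The log2 fold change was 1.80 ± 0.46 (0.0158). This call was lost without Del(CBS1-4) distal replicate 3 (1.72), and without Del(CBS1-5) distal replicate 1 (1.82) or 2 (1.81). Hoxb3 in the proximal forelimb was at 1.13 ± 0.36 for Del(CBS1-5) against Del(CBS1-4) (0.051) and was not called.

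Whether an allele acted differently in the tissues was tested as an interaction in all 36 libraries. Of 40 HoxB values, 0 were called by edgeR, and 0 by DESeq2 and limma, while 1 had an unadjusted p under 0.05. Per allele, 345 to 1815 of the 16292 genes tested had such a p. All genes were called at 0%, 0.0491%, 0.00614%, 0.0184% and 0% for Del(CBS1) to Del(CBS1-5). The HoxB value with an unadjusted p under 0.05 was Hoxb2 in Del(CBS1-2). Its effect was lower in the distal than in the proximal forelimb by -1.34 ± 0.39 on the log2 scale (edgeR adjusted p 0.158).

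Within a tissue the measured levels of the HoxB genes were weakly correlated. After subtracting each gene's tissue mean of log2(CPM + 1), Pearson's r over the 36 libraries ran from -0.10 to 0.33 among the 28 pairs of members, with a median of 0.12. The mean of the 8 members was most like Tefm (r = 0.69), a mitochondrial transcription elongation factor, Rhbdd1 (0.67), a rhomboid-family protease, Meis2 (0.61), Gga2 (0.61), a trafficking adaptor, and Rps15a (0.61), a ribosomal protein, among 10130 genes of at least 10 CPM. These r values are descriptions, and the libraries share depth and tissue makeup. Counting noise at such low counts lowers r between members, so a low r cannot show that they vary independently.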

How the data were processed

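RNA of 18 distal and 18 proximal forelimb samples was read as 50-nt single ends. The authors deposited whole-number read counts per Ensembl gene, and FPKM values, per the file headers. Cufflinks 2.2.1, STAR 2.7.0, cutadapt 1.16 and the build mm10 are listed, without their roles, in the processing notes of the submitters. The counting settings are not known here. Genes were joined by Ensembl ID.

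Counts were tested with edgeR 4.0.16 (R 4.3.3; TMM, filterByExpr with a minimum count of 10, quasi-likelihood F test), with Benjamini-Hochberg adjustment over all genes tested and a threshold of 0.05. Tissues were compared in the 6 libraries of a genotype, alleles in the 18 libraries of a tissue, and interactions in all 36. Alternatives were DESeq2 1.42.0, RLE factors, no filter, limma 3.58.1 on log2(FPKM + 0.1) and log2(FPKM + 1), a replicate block, and leaving out each library. The procedure was tested on simulated data with changes set in genes drawn at random from those tested. It does not give the sensitivity at counts as low as those of the HoxB genes.

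Same-numbered distal and proximal samples deviated together (r 0.246 to 0.701 in 18 of 18 pairs), so the numbers pair the tissues. All 8 members were named, and up to 4 genes of each context list by smallest p, of which 1 is not reported here. The members and lists were chosen with earlier results of these data known. Labels tie each library to individual embryos but name no litter or batch, so p-values refer to the spread between these samples. Embryo sex, read from Xist and Ddx3y, differed between genotypes and was not in the models. Females were 3 of 3 embryos in Del(CBS1-2), 1 of 3 in Del(CBS1) and Del(CBS1-3), and 2 of 3 in WT, Del(CBS1-4) and Del(CBS1-5).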

Additional observations from a re-analysis of the deposited data

How the results depend on the processing

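The distal to proximal difference averaged over 6 genotypes, added after the values were seen, called 8 HoxB genes under all 6 other settings and without each of the 36 libraries. In WT the count of 4 became 3 by DESeq2, where Hoxb2 was lost, and 2 to 4 without each library in turn. By DESeq2 the counts of 5 in Del(CBS1-3) and in Del(CBS1-5) became 4 each, as they did by limma on both FPKM scales, with Hoxb8 lost. In Del(CBS1-4) the count of 3 became 5 without a filter, where Hoxb8 and Hoxb4 were added, and 3 to 5 without each library, with 5 when distal replicate 3 was left out. Between Del(CBS1-5) and Del(CBS1-4), the distal count of 1 became 0 to 1 without each library. The proximal count of 1 became 2 by DESeq2, 2 without a filter and 0 to 2 without each library, with Hoxb3 added where it was 2. The causes were not tested. The count of 0 against WT was 0 in all 120 other fits. No direction was reversed. With the embryo as a replicate block, the tissue comparison called 4 members in WT, 4 in Del(CBS1-4) and 5 in Del(CBS1-5). The block of replicate numbers across genotypes, which pairs no samples (median r of same-numbered samples -0.04 distal and -0.03 proximal), gave 0 calls against WT. Depth limits these results most for Hoxb5 and Hoxb6, which had at most 15 counts in a library and lay under the count filter in every distal comparison between genotypes.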

Other observations

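The highest Hoxb3 value of the series came from proximal Del(CBS1-5) replicate 1, with 115 counts, or 8.12 CPM, beside 4.32 CPM in the next highest proximal library. Among 10736 genes with at least 100 counts in that library, Hoxb3 ranked 1 by its excess over the next highest proximal library. Hoxb3 passed that minimum only through this high value, since the next highest proximal library held 70 counts. Its rank is therefore a description. Hoxc6 ranked 3, at 14.6 CPM beside 9.45, and Hoxc5 ranked 6, at 17.4 CPM beside 12.52. This library and these genes were chosen after their values were seen. Hemgn, which encodes a nuclear protein of red cell precursors, ranked 5, at 10.1 CPM beside 6.61. Hoxb2 in the same library stood at 4.66 CPM, within the proximal range of the other libraries.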
